A study of Saccharomyces cerevisiae with 4 samples.

Results

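The transcript levels described here are those of wild-type (WT) cells respiring on ethanol and glycerol. They were read from the 2 WT arrays among the 4 arrays of the series, and every one of the 5343 named genes on them was taken and ranked by its mean log2 signal over both arrays. The study asked how the RSC chromatin-remodeling complex, whose ATPase is Nps1 (Sth1), acts in respiratory growth, and it paired the WT with the mutant nps1-13, which is not analysed here. WT was BY4743, a MATa/α diploid with the alleles his3Δ1, leu2Δ0 and ura3Δ0 in both copies and with 1 deleted copy each of MET15 (MET15/met15Δ0) and LYS2 (LYS2/lys2Δ0), and both WT samples had the same treatment. Cells from YPD, a glucose medium, spent 4 h in YPEG, whose carbon sources are ethanol and glycerol. The paper's methods give 28°C for growth, and biotin-labelled cRNA made from total RNA was read on the Affymetrix Yeast Genome 2.0 array. Whether the 2 samples came from different cultures is not stated, and their spread may be technical only.

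Ethanol and glycerol cannot be fermented by budding yeast, which has to oxidize them in its mitochondria. Ethanol is turned into acetaldehyde, acetate and acetyl-CoA, and this feeds the TCA cycle, the respiratory chain and ATP synthase. Because no sugar is supplied, hexose phosphates for the cell wall, storage carbohydrates and nucleotides are made by gluconeogenesis, fed by the glyoxylate cycle. Glucose represses many of these genes through Mig1, and Hap4, Cat8 and Adr1 activate them when glucose is gone.

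The signals spanned a wide range, and most genes lay far from both ends of it. The median probe set had a signal of 3051 on one array and 2770 on the other, and the highest signals were 23097 and 23318. A gene is called under 100 when its mean log2 signal was under log2 of 100, a limit that is a round number and not a detection limit. By these rules 200 genes, or 3.74% of all, made up the brightest group, with signals between 14766 and 23207. Another 161 genes, or 3.01%, fell under a signal of 100, and 4982 lay between. The plot of signal against rank has a long gentle slope and a steep fall at the dim end. The signal of a probe set depends on its probes as well as on the transcript, so a rank orders signals and is no count of mRNA molecules, and no fold between genes is given. With 1 group of 2 arrays no difference was tested, and the counts below are descriptions set beside the shares 3.74% and 3.01%.

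**Figure D1:**
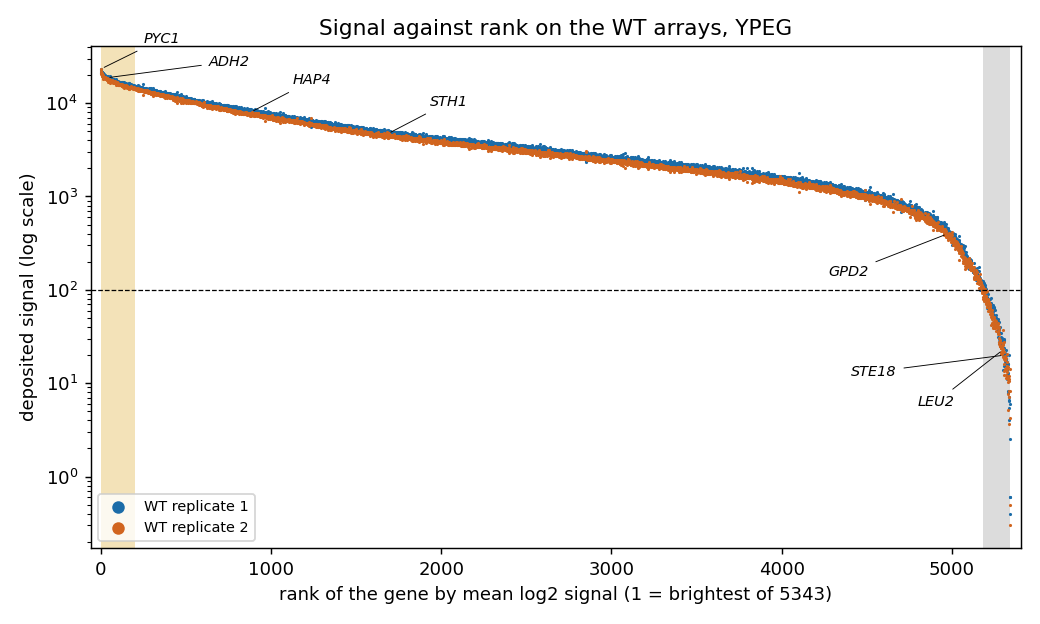
Signal of each of the 5343 named genes (vertical axis, deposited signal on a log scale) against its rank by mean log2 signal (horizontal axis), with 1 point per gene for each WT array. The left band marks the brightest 200 genes, the right band the 161 genes under a signal of 100 (dashed line), and 7 genes are labelled.

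The arrays ranked the genes nearly alike. Pearson's r between their log2 signals was 0.996 over the 5343 genes, which are not independent replicates, and the median gene was lower by 0.13 on the log2 scale on replicate 2. Taken separately, the arrays placed 187 of the same genes among their brightest 200, and 148 genes were under 100 on both arrays while 19 were so on only 1 of them. The difference between arrays widened as the signal fell. Its SD on the log2 scale was 0.05 above a signal of 15000, 0.09 between 1000 and 3000, 0.31 between 30 and 100, and 1.05 below 30. The order within the dimmest 63 genes, those under a signal of 30, thus lies within the spread between the arrays, whereas the placing of a gene among the brightest, the middle or the dim is mostly shared.

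**Figure D2:**
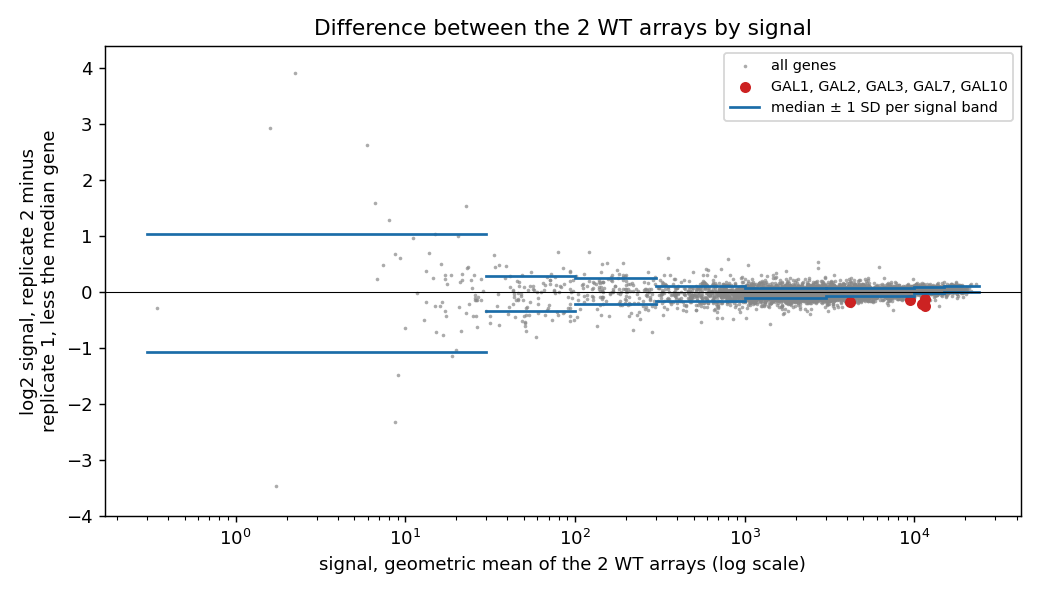
Difference in log2 signal between the WT arrays, replicate 2 minus replicate 1 less the median gene (vertical axis), against the geometric mean signal (horizontal axis, log scale), with 1 grey point per gene. Blue lines mark the median ± 1 SD of each signal band, from an SD of 1.05 below a signal of 30 to 0.05 above 15000, and red points mark 5 galactose genes chosen after their values were seen.

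Genes that diploid cells keep off were mostly in the lower quartile of all genes. Of the 15 haploid marker genes listed, 6 were under a signal of 100 and 14 were in the lower quartile, and their signals ran from 19.98 to 1532, for RME1, the repressor of meiosis that diploids shut off. Of the 7 meiotic markers listed 0 were under 100 and 5 were in the lower quartile, with signals from 277 to 2774. HO, the mating-type switching endonuclease, had signals of 63.7 and 40.3. HMRA1, the silent copy of the a1 gene, had 1599 and 1896, and in a diploid the same transcript also comes from the active mating-type locus. LEU2, an enzyme of leucine synthesis deleted in both copies, had 14 and 37.1, whereas MET17 (MET15), present in 1 copy, had 4039 and 3883, and LYS2, also in 1 copy, had 1371 and 1208. HIS3 had 3335 and 2812 although both copies carry his3Δ1, an internal deletion. STH1 had 5016 and 4372, at rank 1685 of 5343, and the 16 measured RSC genes had a median signal of 2765. None of the 16 was among the brightest 200 or under 100, sets that held 3.74% and 3.01% of all genes.

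The brightest 20 genes came from many functions rather than from a single pathway. Rank 1 was held by PYC1, a pyruvate carboxylase that starts gluconeogenesis, with signals of 23097 and 23318. TMA10, a small protein found with ribosomes, had 21539 and 21814, NCE103, the carbonic anhydrase, had 22361 and 20716, and ACC1, which makes malonyl-CoA for fatty acid synthesis, had 21215 and 21241. RGI2, named for its induction in respiratory growth, had 21473 and 20780.2, and PDA1, a subunit of pyruvate dehydrogenase, had 21526 and 19899.7. Carboxypeptidase Y of the vacuole (PRC1), actin (ACT1), the ribosomal proteins RPL3, RPS31 and RPS21B, and the cell wall protein SCW4 were also in this group. The rest were the glycolytic enzymes TDH1 and TPI1, BDH2, a relative of butanediol dehydrogenase, FIT2, which holds iron in the cell wall, OM14 of the mitochondrial outer membrane, the peroxiredoxin TSA1, the stress protein HSP12 and the pyrophosphatase IPP1. All 20 had signals of at least 17996 on both arrays.

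Of the brightest 200 genes, 141 were members of at least 1 of 50 lists of named functions, 5 had no standard name and 54 were neither. Among all 5343 genes, 1238 were in such a list, so that 70.5% of the brightest set and 23.2% of all genes had a listed function. The lists were drawn up with the biology of the culture in view and with earlier results of these data known. A listed gene is therefore more often a well-known one. The higher share in the brightest set may come in part from this choice and is not read as a result. The strip plot of the lists orders them by their median signal.

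**Figure D3:**
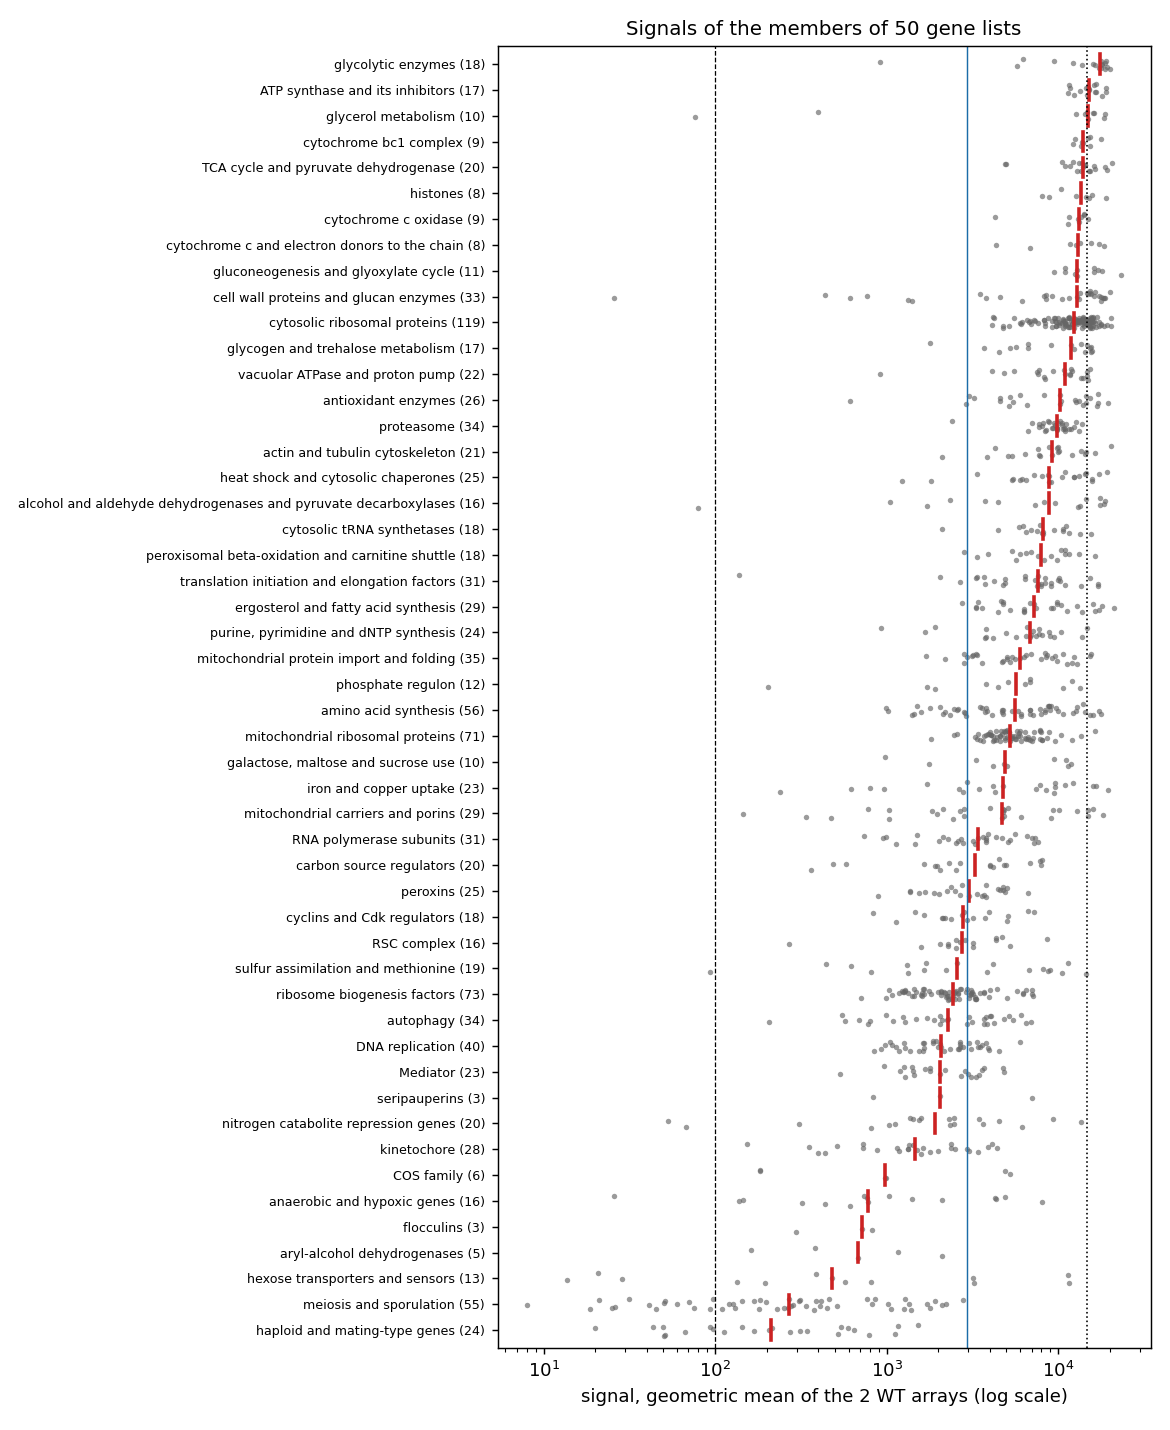
Signals of the measured members of 50 gene lists (horizontal axis, geometric mean of the WT arrays on a log scale), with the number of members in brackets, 1 grey point per gene and a red bar at the list median. The dashed line marks a signal of 100, the blue line the median gene at 2940 and the dotted line the lowest signal of the brightest 200, 14766. Glycolytic enzymes and ATP synthase with its inhibitors have the highest medians, and the haploid and meiotic lists have the lowest.

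The energy-converting core of the mitochondrion was bright throughout. The lists for the TCA cycle and pyruvate dehydrogenase, the cytochrome bc1 complex, cytochrome c oxidase, ATP synthase with its inhibitors, and cytochrome c with the electron donors together held 63 measured genes. Of these, 25 (39.7%) were among the brightest 200, against 3.74% of all genes. Of these 63, 59 were in the upper quartile of all genes and 0 were under 100. The dimmest of them still had a signal of 4269, so that even the least bright gene of these lists stood above the median gene at 2940.

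Of the 20 measured genes of the TCA cycle and pyruvate dehydrogenase, 7 were among the brightest 200. These were PDA1, PDB1, LAT1 and LPD1 of pyruvate dehydrogenase, CIT1, the mitochondrial citrate synthase, KGD2 of 2-oxoglutarate dehydrogenase, and MDH1, the mitochondrial malate dehydrogenase. CIT1 had signals of 19787 and 18673 and LPD1, the dihydrolipoamide dehydrogenase that both enzyme complexes share, had 19414 and 18265. The dimmest members were PDX1, which holds LPD1 in the pyruvate dehydrogenase complex, at 5204 and 4694, and CIT3, a minor citrate synthase, at 5112 and 4752.

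The donors to the chain were led by the dehydrogenases of glycerol 3-phosphate and lactate. GUT2, the mitochondrial glycerol-3-phosphate dehydrogenase, had 18686 and 18421, DLD1, which oxidizes D-lactate, had 18078 and 16769.8, and CYB2, which oxidizes L-lactate, had 16664 and 14688. The external NADH dehydrogenase NDE1 had 13889 and 13113 and the internal enzyme NDI1 had 12617 and 10805, while the second external enzyme, NDE2, had 7168 and 6516. Thus all these donors were above the median gene, with the 3 substrate dehydrogenases among the brightest 200.

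The bc1 complex passes electrons to cytochrome c, and its 9 listed nuclear genes lay close together. COR1, a core subunit, had 18449.7 and 16957, RIP1, the iron-sulfur protein, had 15907 and 14784, QCR6 had 15764 and 14888 and QCR8 had 14705 and 15340.2, and these 4 were among the brightest 200. The others were CYT1, the cytochrome c1, at 13823 and 13608, with QCR10, QCR7, QCR2 and QCR9 at ranks 250, 283, 356 and 394. All 9 were within the upper quartile of genes, and the lowest signal among them was 12025 for QCR9 on replicate 2.

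Cytochrome c oxidase transfers the electrons to oxygen, and 8 of its 9 nuclear genes were in the upper quartile. COX13 had 15569 and 14481 and was the only one among the brightest 200, followed by COX12, COX6, COX7, COX8 and COX9 at ranks 237 to 323. COX5A, the form of subunit 5 used with oxygen, had 11944 and 11183, and COX5B, the form used when oxygen is scarce, had 4324 and 4215.

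ATP synthase with its inhibitors was the list with the largest share of its genes in the top set, 10 of 17 (58.8%), when the respiratory lists were set side by side. ATP3, the gamma subunit, had 19931 and 18149, ATP1, the alpha subunit, had 18506 and 17681, and STF2, which stabilizes the bound inhibitor, had 19014 and 18899. ATP2, ATP4, ATP5, ATP7, ATP14, ATP15 and ATP16 completed the 10. The dimmest members, ATP19 and TIM11, subunits that dimers of the enzyme need, had 12078 and 10996 for ATP19 and 11678 and 11209 for TIM11, so that the whole list lay within the upper quartile.

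Mitochondrial upkeep was further down the range. The list of mitochondrial ribosomal proteins had 71 measured genes, a median of 5230 and 68 members above the median gene. Its only member among the brightest 200 was MRP8 at 16733 and 16058, which is in the list by its name, and whose protein is not established as a part of this ribosome. Without MRP8, 0 of 70 were among the brightest 200, against 3.74% of all genes. The brightest of the 70, RSM10, had 14130.3 and 12970.3, and the dimmest, MRP21 and RSM22, had 2462 and 2455 for MRP21 and 1906 and 1750.3 for RSM22. Of 35 import and folding genes, SSC1, the matrix Hsp70, at 15908 and 15241, and HSP60, the chaperonin, at 16185 and 14736, were among the brightest 200 (5.7%, near the share of all genes), and the median was 6017. Among 29 carriers and porins 4 were so, namely MPC3 and MPC2 of the pyruvate carrier, MIR1, the phosphate carrier, and PET9, the main ADP/ATP carrier. MPC3 had 18837 and 17758, and at the other end YMC2 had 340.1 and 341 and AAC3, the anaerobic ADP/ATP carrier, had 156 and 134.

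Genes for using ethanol and acetate were bright at each step. ADH2, the alcohol dehydrogenase that oxidizes ethanol and is repressed by glucose, had 19147 and 18157 at rank 33, and ADH1, the fermentative enzyme, had 17227 and 17775 at rank 66. The acetaldehyde dehydrogenases ALD6 of the cytosol and ALD4 of the mitochondrion had 18575 and 18285 for ALD6 and 18155 and 16910.3 for ALD4. ACS1, the acetyl-CoA synthetase of cells without glucose, had 18643 and 17349, while ACS2 had 10566 and 8869. The list of alcohol and aldehyde dehydrogenases with pyruvate decarboxylases thus had 4 of 16 genes among the brightest 200, and its last member was ADH7, under 100 at 95.1 and 65.9.

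The glyoxylate cycle and gluconeogenesis had 5 of 11 genes among the brightest 200, and all 11 were in the upper quartile. Besides PYC1 and ACS1 these were CIT2, the peroxisomal citrate synthase, at 16596 and 15801, ICL1, isocitrate lyase, at 16685 and 15696, and FBP1, fructose-1,6-bisphosphatase, at 17677 and 16642. PCK1, which makes phosphoenolpyruvate, had 13703 and 12276, and MLS1, malate synthase, had 12058 and 10044. The dimmest were MDH2, the cytosolic malate dehydrogenase, at 11254 and 10712, and PYC2, at 9731 and 9088.

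Glycolytic enzymes, many of which also run in reverse in gluconeogenesis, formed the list with the highest median signal, 17539, and 12 of its 18 measured genes were among the brightest 200. TDH1 had 21198 and 18996, TPI1 had 20255 and 18390.3 and ENO2 had 19053 and 18810.3. CDC19, pyruvate kinase, which works in the direction of glycolysis only, had 19327 and 18401, at rank 27, and its paralog PYK2 had 6005 and 5543. The single glycolytic gene in the lower quartile was GPM3, a relative of phosphoglycerate mutase, at 957 and 867.

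The glycerol list holds genes that use glycerol and genes that make it, with 8 of 10 in the upper quartile and 2 in the lower quartile. STL1, the glycerol importer, had 16241 and 15772, GUT1, glycerol kinase, had 15176 and 14843, and with GUT2, DAK1 and GPD1 they made 5 of 10 glycerol genes among the brightest 200. GPD1, which makes glycerol 3-phosphate in osmotic stress, had 19679 and 17896, whereas GPD2, the form used without oxygen, had 405 and 392. DAK2, a dihydroxyacetone kinase, was under 100 at 72.7 and 80.5, and its relative DAK1 had 16716 and 15837. GPP2, GCY1 and GPP1 stood outside the brightest set, at ranks 204, 223 and 342.

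Reserve carbohydrates followed, with 5 of 17 genes of glycogen and trehalose metabolism among the brightest 200. UGP1, which makes UDP-glucose, had 16286 and 15144, PGM2, phosphoglucomutase, had 15868 and 15192, GPH1, glycogen phosphorylase, had 15399.5 and 15616, and TPS1 and TSL1 of trehalose synthase were the other members there. GLG1, a primer protein of glycogen, had 3782 and 3660, and PGM1, the minor phosphoglucomutase, had 2099 and 1527 as the dimmest of the list.

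Peroxisomal beta-oxidation and the carnitine shuttle, which moves acetyl units to mitochondria, had a median signal of 7932 and 1 of 18 genes (5.6%, near the 3.74% of all genes) among the brightest 200. This was CAT2, carnitine acetyltransferase, at 16831 and 15961. FAA1, an acyl-CoA synthetase, followed at 13453 and 12959, and DCI1 and PXA2 were the dimmest, at 3371 and 3325 for DCI1 and 2883 and 2738 for PXA2. The 25 measured peroxins, which build the organelle, had a median of 3028, near that of all genes, from PEX11 at 6908 and 6476 to PEX21 at 934 and 845.

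Where 2 or 3 genes encode the same step, the signals of the paralogs were placed side by side in the plot of paralogs. The families ran from pairs that both lay near the top of the range to pairs at its opposite ends. For hexokinase, GLK1 and HXK1 were at ranks 43 and 63, and HXK2, the form used on glucose, was at rank 659 with signals of 9504 and 9351. Cytochrome c was at 12980.4 and 12384 for CYC1, the aerobic form, and 4428 and 4229 for CYC7. PET9 had 15432 and 14540.3, AAC1 had 2924 and 2763, and AAC3 had the values above. For the translation factor eIF5A, HYP2, its aerobic gene, had 17392 and 16794 and ANB1, its hypoxic gene, had 139 and 136. Different probe sets were read for each gene, so these orders carry the same limit as the ranks.

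**Figure D4:**
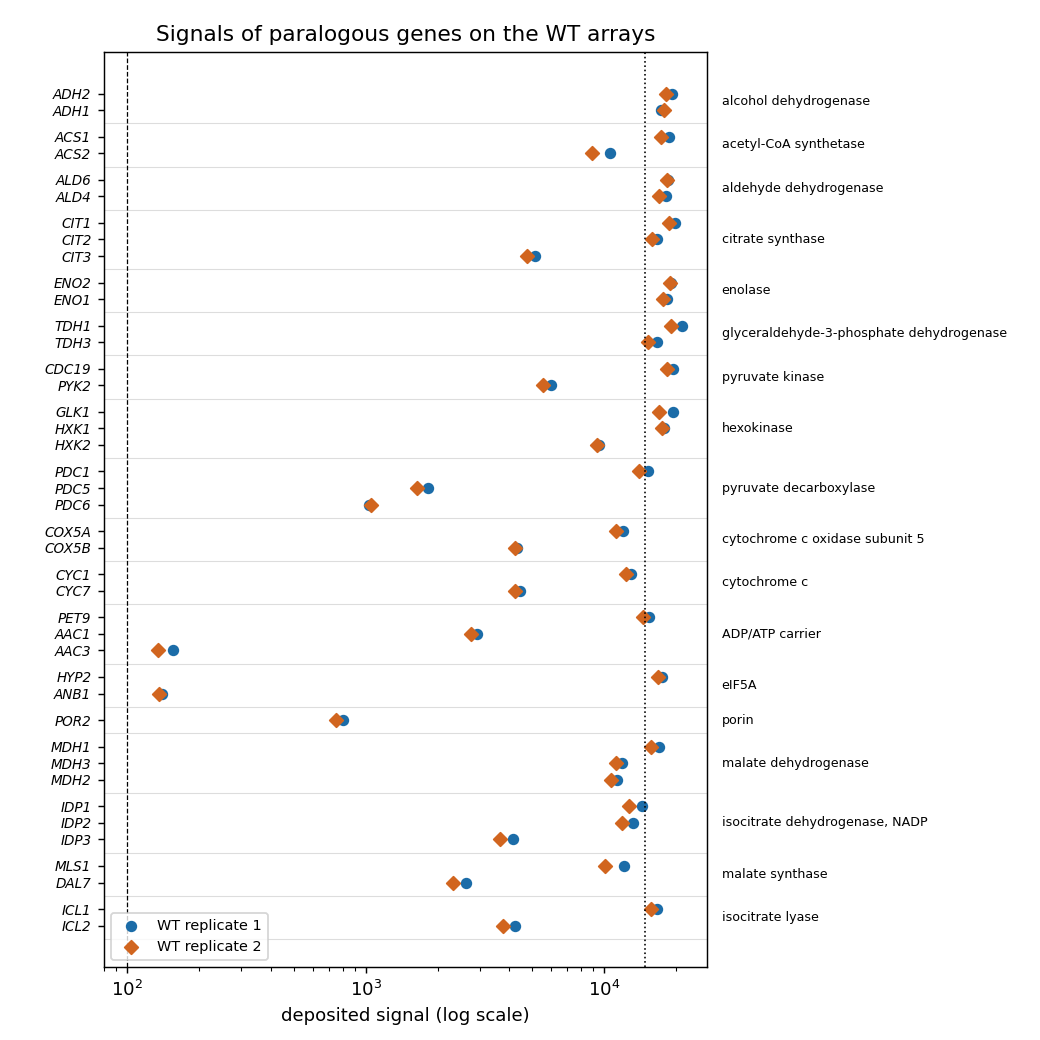
Signals on the WT arrays (horizontal axis, log scale) of genes grouped by the enzyme or protein that they encode, with 1 circle and 1 diamond per gene for the replicates. The dashed line marks a signal of 100 and the dotted line the lowest signal of the brightest 200, 14766. HYP2 and ANB1 lie at opposite ends, while ADH2 and ADH1 both lie to the right of the dotted line.

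The pyruvate decarboxylases of fermentation were far apart in the middle set. PDC1 had 15316 and 13979.8, just outside the brightest 200 at rank 209. PDC5 had 1816 and 1645, at rank 3770, and PDC6 had 1035 and 1054, at rank 4485. Citrate synthase had 2 genes among the brightest 200, CIT1 and CIT2, and isocitrate lyase had 1, ICL1, whereas ICL2, of the mitochondrial methylisocitrate pathway, had 4241 and 3762. DAL7, the malate synthase gene of the allantoin pathway, had 2622 and 2323. The NADP-linked isocitrate dehydrogenases IDP1 and IDP2 were at ranks 287 and 364, and IDP3 of the peroxisome was at rank 2052. Probe sets for TDH2 and for the porin POR1 were not analysed here, and POR2 had 804 and 748.

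Sugar uptake was the dim side of carbon metabolism. The 13 measured hexose transporters and sensors had a median signal of 478, with 0 among the brightest 200, 9 in the lower quartile and 3, HXT14, HXT8 and HXT10, under 100. Of all genes, 3.74% were among the brightest 200 and 3.01% were under 100. HXT10 had 11.3 and 16.8 and HXT8 had 23.7 and 18. The exceptions at the upper end were GAL2, the galactose transporter, at 12609.8 and 10548, and HXT5, a transporter made when growth is slow, at 11593 and 11173. Of the 20 genes listed, 7, HXT6 and HXT7 among them, were not measured under their own names.

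Genes for other sugars were not dim, although none of these sugars is a named carbon source of YPEG. SUC2, invertase, had 12007 and 11725. The galactose enzymes GAL1, GAL10 and GAL7 had 13114 and 10051 for GAL1, 12495 and 9925 for GAL10 and 10415 and 8602 for GAL7. Of the list's 10 measured genes 0 were among the brightest 200 and 0 were under 100, against 3.74% and 3.01% of all genes. In the upper quartile were 4, while MAL11 at 1849.9 and 1688 and MAL13 at 1028 and 936 were the lowest.

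The regulators of these genes had middle signals. Of 20 carbon source regulators 0 were among the brightest 200 and 0 were under 100, and the median was 3273. HAP4, the activating subunit of the HAP complex, had 8418 and 7531 and its DNA-binding partners HAP2, HAP3 and HAP5 had ranks 1918, 3192 and 3571. CAT8, an activator of gluconeogenesis, had 8253 and 7519.8, ROX1, the hypoxic repressor, had 8505 and 7666, and MIG1, the glucose repressor, had 4124 and 3929. The dimmest were RTG1, of retrograde signalling, at 519.7 and 452, and MIG2, a second glucose repressor, at 343 and 387. Among all genes the shares were 3.74% and 3.01%, so counts of 0 in a list of 20 do not set these regulators apart.

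Cytosolic ribosomal proteins were the largest single group among the brightest 200, with 32 of 119 measured genes (26.9%). Of the 138 genes listed, 19 were not measured under their own names. All 119 were above the median gene and 112 were in the upper quartile, with a median signal of 12454. The large subunit had 17 of 69 genes and the small subunit 15 of 50 among the brightest 200. RPL3 had 21119.9 and 19572, RPS31, which is made as a fusion to ubiquitin, had 20755 and 19763, and the dimmest were RPL22B at 4453 and 3912 and RPL15B at 4380.5 and 3921, each of which has a close paralog.

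The measured factors that serve the ribosome were less bright, by list median, than its proteins. Of the 37 initiation and elongation factors listed, 6 were not measured under their own names, so their levels are not known here. Among 31 measured initiation and elongation factors 3 (9.7%, against 3.74% of all genes) were among the brightest 200, HYP2, EFB1, an exchange factor of elongation, at 17340.1 and 16800.1, and YEF3, the fungal elongation factor, at 15622 and 15143. Of 18 tRNA synthetases GUS1, for glutamate, was there (5.6%, near the share of all genes) at 16096 and 14959.7, followed by DPS1, for aspartate, at 14358 and 12612, and the dimmest was WRS1, for tryptophan, at 2302 and 1945. The 73 genes of the ribosome biogenesis list had 0 among the brightest 200 and a median of 2427, below that of all genes. They ran from NOP58 at 7633 and 6726 and NSR1 at 7078 and 7026 to NOP9 at 1025 and 958 and RRP36 at 739 and 686.

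The cell surface was another source of bright genes, with 13 of 33 cell wall genes (39.4%) among the brightest 200. SCW4 had 20351 and 19903, CCW12, a mannoprotein of the wall, had 19577 and 17897, and HSP150 had 18795 and 18279.9, and SED1, CWP1, CWP2, CIS3, SPI1, YGP1, ECM33, UTH1, BGL2 and GAS1 were the others. The same list reached down to TIR3 at 464 and 416 and DAN1 at 28.1 and 23.3, both mannoprotein genes of anaerobic cells. The 16 measured anaerobic and hypoxic genes had a median of 776, with 11 in the lower quartile. PMA1, the plasma membrane proton pump, had 15452 and 15271, and its relative PMA2 had 981 and 844. VMA1, of the vacuolar ATPase, had 15407 and 14593 and PMP3 had 14854 and 14773, and these made 3 of 22 genes of the vacuolar ATPase and proton pump list among the brightest 200.

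Antioxidant enzymes and lipid synthesis each had 5 genes in the top set. Of 26 antioxidant genes these were TSA1 at 20932 and 17996, the mitochondrial peroxiredoxin PRX1 at 17057 and 17107, SOD2 at 17422 and 16554, SOD1 and TRX1, and the dimmest were TSA2 at 2981 and 2849.8 and GPX2 at 627 and 605. Of 29 genes of ergosterol and fatty acid synthesis they were ACC1, OLE1, the fatty acid desaturase, at 17994 and 17997, FAS1, FAS2 and ERG20. ERG7 and ERG12, of the sterol pathway, were its dimmest, at 3570.4 and 3053 for ERG7 and 2934 and 2606 for ERG12. The heat shock and chaperone list had 4 of 25, led by HSP12 at 19899 and 18709 and CPR1, a cyclophilin, at 17630.1 and 16846, and ending with SSA3 at 1973 and 1675 and HSP30 at 1216 and 1258.

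Other pathways held a few bright genes each, beside a share of 3.74% of all genes in the brightest set. Their shares were 37.5% for histones, 13% for iron and copper uptake, 9.5% for the cytoskeleton and 7.1% for amino acid synthesis. The lower of these shares rest on few genes and do not set those lists apart. Histones had 3 of 8, HTA1 at 19049.8 and 18902, HHT2 at 16508 and 15022 and HTB1 at 15951 and 14335, and all 8 were in the upper quartile. Iron and copper uptake had 3 of 23, FIT2 at 20191 and 19101, FIT3 and the copper transporter CTR1 at 16747 and 15259, and its dimmest were the reductase genes FRE8 at 654 and 594 and FRE4 at 259 and 219. The amino acid synthesis list, which does not hold every such gene (CPA1, below, is outside it), had 4 of 56, namely BAT2, a branched-chain aminotransferase, at 17836 and 17588, GDH2, which releases ammonia from glutamate, at 17466 and 17028, GLN1, glutamine synthetase, and ILV5. The cytoskeleton had 2 of 21, ACT1 at 20708 and 19969 and COF1, cofilin, at 16666 and 16026.

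The 54 genes of the brightest 200 that were in no list and had a standard name were examined after their values were seen. They included vacuolar proteases and their partners, with PRC1 at 21304 and 19532, PEP4 at 18074 and 16433 and APE3 at 17193 and 16499. PIL1 and LSP1, the core proteins of eisosomes, had 19085 and 18487 for PIL1 and 18510.4 and 17663 for LSP1. JEN1, the lactate and pyruvate importer, had 16342 and 16609.9, and ADY2, an acetate transporter, had 17152 and 16670. GCN4, an activator of amino acid synthesis whose protein level is set by translation, had 17187 and 16375. The 5 bright genes with no standard name were YNL134C at 18679.6 and 17350.1, YHR033W, YNL208W, YDL124W and YNL195C.

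The edge of the brightest set was not sharp. Just inside it were CPA1, of arginine synthesis, at 15410 and 14201, RPL8A at 15419.7 and 14155 and TSL1 at 15198 and 14348, and just outside were ICY1 at 15040.4 and 14497, RNR2, of ribonucleotide reductase, at 15183 and 14320.4, and PIR1, a cell wall protein, at 14881 and 14568. Within 1 SD of the mean of 2 arrays from the edge lay 41 genes, 23 inside and 18 outside. The list counts above therefore move by a few genes with the array used, as between 31 and 33 for the ribosomal proteins.

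Most genes in the middle of the ranking were outside the lists, as were most of all genes. The 3 genes nearest the median were YML119W, with no standard name, at 3065 and 2821, PCD1, a peroxisomal pyrophosphatase, at 2944 and 2935, and VPS20, of endosomal sorting, at 3031 and 2849. Among the 200 genes around the median, with signals from 2813 to 3093, 27 were in a functional list, 173 were in none and 14 had no standard name. Thus 13.5% of them were in a list, against 23.2% of all genes, and 7% had no standard name, against 8.5%. Further lists held genes of RNA polymerases, Mediator, DNA replication, cyclins and their regulators, the kinetochore, the proteasome and autophagy. No measured gene of these lists was among the brightest 200 or under 100, sets that held 3.74% and 3.01% of all genes. Each of these lists is short, so the absence of its genes from both sets does not by itself set it apart.

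The proteasome was the brightest of these lists, with a median of 9853 and 33 of 34 genes in the upper quartile. PRE10, a core subunit, had 14060.2 and 13549.6, RPN4, the activator of proteasome genes, had 13705 and 12919, and the single lower member was RPN14, an assembly factor, at 2466 and 2352. RNA polymerase subunits had a median of 3410, from RPB4 at 7966 and 7305 and RPB2 at 7946 and 6851 to RPC25 at 1017 and 889.9 and RPC53 at 788 and 692. Lower medians were found for cyclins at 2788, autophagy at 2269, DNA replication at 2071, Mediator at 2055 and the kinetochore at 1465. CLB1, a mitotic cyclin, had 7611 and 6827 and CLB6, an S-phase cyclin, had 922 and 754. ATG8, the ubiquitin-like protein of autophagosomes, had 6871 and 6977 and ATG16 had 224 and 193, and CTF13, of the kinetochore, had 169 and 139 as the dimmest of all these lists.

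The genes under a signal of 100 differed in kind from the others. Of the 161, 84 (52.2%) had no standard name, whereas 8.5% of all genes and 2.5% of the brightest 200 had none, and 47 of the 84 (56%) had a systematic name with a letter suffix, as did 118 (26%) of all 454 genes with no standard name. In a functional list were 32 of them, and 45 were named genes in no list. The dimmest was TDA8 at 0.4 and 0.3, followed upward by YBR072C-A at 0.6 and 4.2, YGR273C at 6 and 0.5 and YLL006W-A at 0.6 and 8.3. For 22 of the 63 genes under a signal of 30 the arrays differed by more than 1.5-fold, so that no order is read among them.

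Meiosis and sporulation supplied 15 of the 32 listed genes, out of 55 measured (27.3%, against 3.01% of all genes). These were SSP1, SPS22, REC114, MEI4, MEK1, PES4, CDA1, SPO75, SPR28, MER1, SPO77, OSW1, CDA2, SPO74 and SPS2. SPS2, a spore wall gene, had 5.4 and 12 and SPO74, of the spindle pole body in meiosis, had 17.4 and 19.8. None of the 55 was above the median gene and 49 were in the lower quartile, with a list median of 270. The brightest were IME2, the kinase that promotes meiosis, at 2904 and 2650.2, and DMC1, the meiotic recombinase, at 2268 and 2145, so that not all of the list lay near the floor of the range.

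Haploid and mating-type genes supplied 8 of 24 (33.3%), and 23 of the 24 were in the lower quartile, with a median of 211. The 8 were FUS3, STE3, ASG7, MF(ALPHA)2, HO, FAR1, MF(ALPHA)1 and STE18. STE18, the gamma subunit of the pheromone-coupled G protein, had 29.8 and 13.4, and MF(ALPHA)1, the main gene of the alpha pheromone, had 45 and 41.6. At the upper end were RME1 at 1674 and 1403, SAG1, the alpha agglutinin, at 1277 and 1060.2, and STE4, the G protein beta subunit, at 1096 and 1131.

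A few genes of nutrient use made up the remaining listed dim genes. DAL1 and DAL4, of allantoin use, had 64.2 and 44.3 for DAL1 and 64.9 and 71.3 for DAL4, among 20 genes under nitrogen catabolite repression, whereas PUT4, the proline permease, had 14209 and 12990.1. SUL1, a sulfate permease, had 117 and 75.1, among 19 genes of sulfur assimilation that reached up to CYS4, of cysteine synthesis, at 14638 and 14332. With ADH7, DAK2, DAN1 and the 3 hexose transporters these complete the list. At the edge of the limit, YJR154W at 122.6 and 79.1, FUS3 at 95 and 101 and SSP1 at 100.5 and 93 lay just under it, and YIL134C-A at 96.1 and 108, YER078W-A at 125 and 84.3 and YCL042W at 109 and 98 just above.

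Gene length and position, which the ranking did not use, also differed between the sets. By RefSeq's R64 gene table the median gene length was 991 bp in the brightest 200, 1440 bp in the 200 genes around the median, 609 bp in the genes under 100 and 1245 bp in all genes. Genes shorter than 300 bp were 29.2% of the dim set, 5.5% of the brightest set and 4.1% of all. Among the first 10 genes from a chromosome end were 14.9% of the dim set, 2.5% of the brightest and 3.4% of all. The 58 measured genes nearest the ends, at places 1 to 5, had a median signal of 503, while those more than 40 genes away had a median of 3039. An overlap with another gene was annotated for 6.2% of the dim set and 1.6% of all genes. The array's design, including where its probes lie in each gene, was not used here, and its part in these differences was not tested.

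The subtelomeric families themselves were only partly measured under their own names. Of 24 seripauperins 3 were measured, PAU23 at 7014 and 7115, PAU17 at 2072 and 2018 and PAU5 at 884 and 796. Of 12 COS genes 6 were measured, from COS8 at 5695 and 4813 to COS10 at 203 and 162, and the 3 measured flocculins were FLO11 at 772 and 875, FLO10 at 758 and 680.5 and FLO1 at 281 and 311. The 5 aryl-alcohol dehydrogenases ran from AAD10 at 2301 and 1936 to AAD3 at 158 and 168. None of these genes was among the brightest 200 or under 100, where 3.74% and 3.01% of all genes lay, and with so few genes this does not set them apart.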

How the data were processed

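Total RNA of WT and nps1-13 cells, with 2 arrays of each, was measured on one-colour Affymetrix Yeast Genome 2.0 arrays. The deposited values are linear intensity signals, 1 per probe set. According to the methods they came from GCOS under its defaults, with each array scaled globally to a trimmed mean of 500. The trimmed means here were 4285 and 3941, so the values are not at that target, and they were used as deposited. The 2 nps1-13 columns were not used. Number of arrays and signal, not read depth, limit the precision.

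Of 5558 probe sets, 5345 have 1 symbol in the platform annotation, 0 several and 213 none. They cover 5343 genes, all matched to RefSeq R64 (11 symbols updated), and for 2 genes the probe set with the higher mean was taken. Genes were ranked by mean log2 signal in Python 3.11.15 with pandas 2.3.3 and numpy 2.4.6, and correlations were computed with scipy 1.17.1. Plots were drawn with matplotlib 3.10.9. The ranking was tested on simulated data.

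The members and the gene lists were chosen with earlier results of these data known. Named genes are the 20 brightest, some of the 10 dimmest, those at the edges of the sets and nearest the median, the extreme members of each list, paralogs, strain markers and the 5 genes with the largest array difference. Any other gene belongs to a counted list or is marked as picked from its values. Alternatives were another number of brightest genes, another signal limit, rescaling, each array alone, and both arrays under the limit. Others were quantile normalization, the arithmetic mean of the signals, the mean of a gene's probe sets, and only probe sets with no suffix letter. Protein length and promoter motifs had been planned, but gene length was used instead and motifs were not analysed.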

Additional observations from a re-analysis of the deposited data

How the results depend on the processing

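The ribosomal and respiratory counts among the brightest genes, taken as shares where 100 or 400 genes were used, kept within 1.5 times their value under every alternative that was run on them, whereas counts under a fixed signal followed the scale. With each array rescaled to a trimmed mean of 500, 664 genes were under 100 instead of 161, 42 meiosis and sporulation genes instead of 15, and 192 genes with no standard name instead of 84. At a limit of 50 these counts were 96, 8 and 54, and at a limit of 200 they were 250, 24 and 121. With each WT array alone, 153 to 162 genes were under 100, with 13 to 15 meiosis genes and 82 to 86 genes with no standard name, and the ribosomal proteins among the brightest 200 ranged from 31 to 33, while the respiratory genes numbered 26 on either array instead of 25. The median length of the brightest genes was 991 bp, between 973.5 and 986.5 bp with 1 array left out and 930 bp for the brightest 400. The number of genes shared by the arrays' brightest 200 has no value with 1 array. No paired analysis was possible because the ranking used 1 group of samples. Of 64 values under alternative settings, 54 stayed within the tolerance and 10 moved, where the tolerance was 1.5 times for counts and shares and 1 SD between the arrays' own medians for length. Some of the 54 could not move, so their number is no measure of robustness. No probe set had a suffix letter, so leaving such probe sets out repeated the main analysis. Rescaling an array by a constant cannot change a rank, and averaging probe sets touched only 2 genes.

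Signals under 30 carried an SD between arrays of 1.05 on the log2 scale, so levels there are not resolved. Flags for detection and saturation were not analysed here. Several gene families were measured under their own names only in part.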

Other observations

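Some galactose genes differed in the same direction between the WT arrays. Relative to the median gene, replicate 2 was lower than replicate 1 by 0.25 on the log2 scale for GAL1 (13114 and 10051), and the differences were -0.20 for GAL10, -0.15 for GAL7, -0.13 for GAL2 and -0.17 for GAL3, while the SD between arrays was 0.07 for genes with signals between 3000 and 10000 and 0.06 between 10000 and 15000. These 5 genes were chosen after their values were seen, and the difference was not tested. GAL80, the repressor of the pathway, was at 0.03, and of the 10 measured genes for galactose, maltose and sucrose use 7 were lower and 3 were higher on replicate 2. The same difference was -0.56 for LYS4, an enzyme of lysine synthesis, with signals of 1798 and 1112, and 0.46 for RPS22A, a ribosomal protein, with 5514 and 6919.7.

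Among genes with a signal of at least 100 on both arrays, 5 differed by more than 1.5-fold after centring. PTH1, a peptidyl-tRNA hydrolase, had 378 and 211, BSC5 had 293 and 167 and YOR381W-A had 174 and 104, all lower on replicate 2. SWM2 had 299 and 420.3 and SSF2, a ribosome biogenesis gene, had 677 and 934, both higher on replicate 2.

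The 213 probe sets with no symbol had a median signal of 2422, with a lowest signal of 8.86 and a highest of 17465. Of these, 14 were under 100 and 3 were at or above the signal of the gene at rank 200.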
